A study of Mus musculus with 6 samples.

Results

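The transcripts of 10 genes of the MHC class II pathway were followed in sorted microglia, the resident macrophages of the brain. The genes were given by name: the class II chains H2-Aa, H2-Ab1 and H2-Eb1, the invariant chain Cd74, the DM chains H2-DMa, H2-DMb1 and H2-DMb2, the DO chains H2-Oa and H2-Ob, and the transactivator Ciita. They are 10 of the 49585 genes listed in the files. The rule that names them uses no measured value, though earlier results of these data were known when they were chosen. Bulk RNA sequencing covered 3 wild-type (WT) libraries and 3 libraries labelled IRF8KO, which the series title gives as a knockout of IRF8, a transcription factor of macrophages and related cells. All mice were male and 3 months old, and the cells were freed without enzymes and sorted into TRIzol. The labels name no mouse strain, knockout allele or Cre driver, and apart from the isolation brain by brain they say nothing of what separates replicates, so p-values measure the spread between these libraries.

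MHC class II molecules present peptides from endosomes to CD4+ T cells. An alpha and a beta chain are made in the endoplasmic reticulum with the invariant chain CD74 in the groove, which guides them to late endosomes. There CD74 is cut down to a remnant called CLIP, the DM heterodimer removes CLIP and favours stable peptides, and the DO heterodimer holds DM in check. The transactivator CIITA switches these genes on by docking on factors bound to a conserved promoter module, the SXY module, with an X box for the RFX complex, an X2 box for CREB and ATF factors and a Y box for NF-Y. Resting microglia are known for low class II levels that rise in inflammation and disease.

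The stretch around the Y box letters is given for 5 members, to show which other letters of the module lie beside them. RefSeq windows (GRCm38.p6, 250 bases before to 50 after a start site, 300 bases in all) matched 7 of the 10 members by symbol. Each line below runs 5′ to 3′ on the gene's strand, from 50 bases before the Y box to 5 bases after it. Capitals mark the Y box (CCAAT, read as ATTGG on the gene's strand), the part of the X box searched (GTTGC, read as GCAAC) and that of the X2 box (TGACG, on either strand).
H2-Aa: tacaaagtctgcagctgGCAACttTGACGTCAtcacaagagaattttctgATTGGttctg
H2-Eb1: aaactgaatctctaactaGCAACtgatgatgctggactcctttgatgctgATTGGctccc
H2-DMb2: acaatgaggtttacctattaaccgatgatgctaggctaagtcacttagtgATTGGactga
H2-Oa: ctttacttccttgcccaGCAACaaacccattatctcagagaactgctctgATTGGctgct
H2-Ob: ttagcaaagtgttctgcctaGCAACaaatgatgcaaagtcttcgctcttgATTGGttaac
In genome order the stretches are chr17:34092286-34092345 (H2-Oa), chr17:34145109-34145168 (H2-DMb2), chr17:34238798-34238857 (H2-Ob), chr17:34287862-34287921 (H2-Aa, minus strand) and chr17:34305758-34305817 (H2-Eb1), the others on the plus strand.

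The stretches were cut around ATTGG, which starts 90 bases before the RefSeq start site in H2-DMb2, 59 in H2-Eb1, 57 in H2-Ob, 48 in H2-Aa and 43 in H2-Oa. Where GCAAC was found, 25 bases (H2-Ob), 27 bases (H2-Eb1) or 28 bases (H2-Aa and H2-Oa) separate it from the Y box. The H2-DMb2 stretch lacks those exact letters. H2-DMb1 also holds ATTGG, but in GENCODE M21 that stretch lies within the first exon, and it is not printed. H2-DMa has 2 windows, of which 1 starts at an annotated transcript start and the other lies 2672 bases from the nearest one. Over both strands, CCAAT was found in 7 of the 8 member windows, against 37.4% of all 32544 windows of this length, and GTTGC in 5 of 8, against 35.1%. The window without CCAAT is the H2-DMa window at an annotated transcript start, which holds GTTGC, while the other H2-DMa window holds CCAAT without GTTGC, so neither has both. TGACG was found in 1 member window (20.9% of all), and the PU.1 core GAGGAA in 1 (28.1%). The ETS-IRF composite element and the interferon response core, whose letters overlap, were found in 0 of the 8 windows, against 2.73% and 3.45% of all. A match is a stretch of letters and does not show binding, and the lack of one says only that these letters are not in the window.

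Libraries held between 3658917 (WT replicate 1) and 11098363 (IRF8KO replicate 3) gene counts, and counting error is given for these reads only, since they carry no molecular identifiers. Irf8 itself was counted in all 6 libraries, at 795, 851 and 1403 CPM in WT and 743, 650 and 850 CPM in the libraries labelled IRF8KO, not called in the edgeR fit (adjusted p = 0.368) but called lower when scaled by library size alone (log2 fold change -0.90, adjusted p = 0.00763). The labels do not say which part of the gene is altered, so counts over the whole gene are a weak check of the genotype (CPM is a count divided by its library's TMM-scaled size, on the usual CPM scale). Of 12 microglial markers, all were detected in WT and 11 in IRF8KO, where Sall1 was at 0, and their summed level, carried mostly by Csf1r and Tmem119, was 44199 to 73384 CPM in WT and 35816 to 50310 in IRF8KO. Within this list 5 markers were called lower, Cx3cr1 (mean 2631 against 589 CPM), P2ry12 (848 against 48.4), Gpr34 (429 against 48.9), Aif1 (185 against 46.4) and Sall1, and Fcrls was called higher (2622 against 6669 CPM). Border macrophage markers (12, of which Lyve1 and Cd209f were at 0 throughout) summed to 614 to 843 CPM in WT, nearly all of it Stab1 (602 to 823 CPM), and to 3863 to 5067 CPM in IRF8KO. All 9 that were tested were called higher, with a median log2 fold change of 6.97, where 9.64% of all tested genes were called higher. Cd163 and F13a1 had 0 counts in every WT library, and Ms4a7 and Clec12a had at most 9 and 10. These genes passed the low-count filter through IRF8KO, so a call could only be higher, and the tally and the median include them. Pf4 had at most 2.62 CPM in WT and at least 1536 CPM in IRF8KO. IRF8KO replicate 2 stood apart with neutrophil markers (8) at 320 CPM, against at most 3.85 CPM in every other library. WT replicate 3 stood apart with 2.44% of its uniquely mapped reads outside genes, against 7.70% and 7.52% in the other WT libraries, and Apoe took 25.5% to 33.7% of counts in IRF8KO against at most 0.324% in WT. Whether any of this plays a part in the results was not tested.

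Class II is also made by B cells and dendritic cells, so their markers were read in the same libraries. Among B cell markers, Ms4a1, Pax5, Igkc, Cr2 and Blk were at 0 in all libraries. The summed B cell level was 543 to 891 CPM in WT and 37.2 to 48.3 CPM in IRF8KO, and nearly all of it was Ighm, Cd79b, Cd22 and Ighd. Of 12 dendritic cell markers, Clec9a, Cd209a and Ccr7 were at 0 in all libraries. The summed dendritic level was 374 to 694 CPM in WT and 292 to 375 CPM in IRF8KO, carried mostly by Fscn1, which microglia express too. The called markers of this list moved both ways: Batf3 fell from a mean of 23.0 to 1.005 CPM and Cd1d1 from 11.5 to 3.30 CPM, while Zbtb46 rose from 4.62 to 25.7 CPM (edgeR adjusted p = 0.00246, 0.0217 and 0.00137). Their part in the class II results was not tested. In bulk RNA, fewer cells of a type and less RNA per cell cannot be told apart.

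Of the 10 members, 9 passed the low-count filter and Ciita did not. The test called 2 of the 9, H2-DMa and H2-Ob, both lower in IRF8KO, and none higher (edgeR quasi-likelihood fit, calls at a Benjamini-Hochberg adjusted p under 0.05). Over all 11041 tested genes, 19.1% were called, 9.46% lower and 9.64% higher. The median log2 fold change of the 9 was -0.46, with 5 below 0 and 4 above, beside -0.11 for all tested genes. This tally depends on the setting: scaled by library size alone, 8 were below 0 and 1 above (median -0.88, beside -0.61 for all tested genes), and without WT replicate 3, 4 were below and 5 above (median 0.015). An unadjusted p under 0.05 was found for 3 of the 9, and for 3717 of all tested genes. WT and IRF8KO values did not overlap for the same 2 called members, where 37.9% of all tested genes had no overlap. Scaled by library size alone, H2-DMb1 and H2-DMb2 did not overlap either, and the share of all tested genes was not worked out under that scaling.

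**Figure D1:**
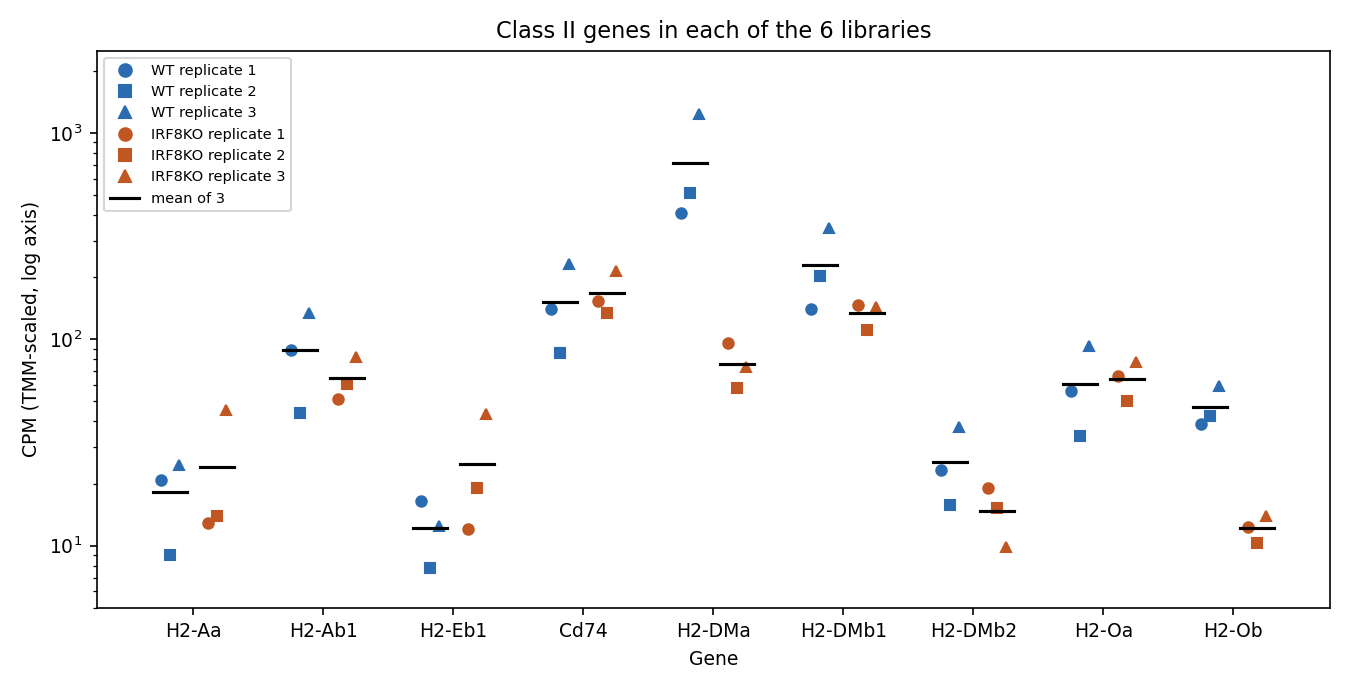
CPM (log axis) of the 9 class II genes that passed the filter, by library; blue is WT, orange is IRF8KO, shapes are replicates and bars are means of 3. The groups separate for H2-DMa and H2-Ob and overlap for the other genes.

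H2-DMa encodes the alpha chain of DM, the editor that takes CLIP out of the class II groove (ENSMUSG00000037649, GRCm38 chr17:34119541-34139101, plus strand). Its level was 411, 509 and 1235 CPM in WT replicates 1, 2 and 3 and 96.1, 57.9 and 73.6 CPM in IRF8KO replicates 1, 2 and 3. Every IRF8KO library lay far below the lowest WT library, and within WT the third replicate was 2.68 times the mean of the other two. WT averaged 718 ± 450 CPM and IRF8KO 75.9 ± 19.2 (SD, n = 3). This is 9.47-fold lower, or -3.24 on the log2 scale (SE 0.45; edgeR quasi-likelihood fit, adjusted p = 0.0005 by Benjamini-Hochberg). With WT replicate 3 left out, the decrease was 5.97-fold, with a log2 fold change of -2.58 and a smaller edgeR adjusted p of 3.87e-05. Exons of the neighbour Brd2 overlap 10.4% of the exonic length of H2-DMa. Reads that hit exons of both were counted for neither, so the H2-DMa level per exonic kilobase may be too low. Brd2 stood at 140 to 187 CPM in WT and 100 to 119 CPM in IRF8KO and was not called.

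H2-DMb1 (ENSMUSG00000079547, chr17:34153072-34160230) and H2-DMb2 (ENSMUSG00000037548, chr17:34143307-34151555) encode beta chains that pair with this alpha chain. H2-DMb1 had 141, 202 and 347 CPM in WT and 146, 111 and 143 CPM in IRF8KO. WT replicate 1 sat inside the IRF8KO range, while the other WT libraries were above it. The means were 230 ± 106 and 134 ± 19.5 CPM (SD, n = 3), and the log2 fold change of -0.78 (SE 0.34) did not pass the edgeR test (adjusted p = 0.132). Scaled by library size alone, the groups did not overlap and H2-DMb1 was called lower (-1.22, edgeR adjusted p = 0.00436). With 1 library left out it ranged from -1.05 to -0.33 and was not called. H2-DMb2 had 23.2, 15.7 and 37.6 CPM in WT and 19.1, 15.2 and 9.87 CPM in IRF8KO. These TMM-scaled values overlapped as well, with a log2 fold change of -0.79 (SE 0.41) and an edgeR adjusted p of 0.199. By library size alone the H2-DMb2 groups did not overlap, at -1.24 (edgeR adjusted p = 0.0523). With 1 library left out H2-DMb2 ranged from -1.06 to -0.36. The beta genes are similar in sequence and only uniquely mapped reads were counted, so the split of reads between them is uncertain.

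DO, built from H2-Oa and H2-Ob, binds DM and limits its work. H2-Ob, the beta chain (ENSMUSG00000041538, chr17:34238903-34254414), had 38.7, 42.3 and 59.6 CPM in WT and 12.4, 10.3 and 14.0 CPM in IRF8KO. All IRF8KO libraries were below all WT libraries, with little spread within either group. WT averaged 46.8 ± 11.1 CPM and IRF8KO 12.2 ± 1.84 (SD, n = 3). This is 3.83-fold lower, or -1.94 on the log2 scale (SE 0.32; edgeR quasi-likelihood fit, adjusted p = 0.00154 by Benjamini-Hochberg). Of the B cell markers, Ighm, Cd79b, Cd22 and Ighd fell in the same comparison, Cd79a had 1 to 3 counts in every library, and Ms4a1 and Pax5 were at 0 in all of them. Their part in the H2-Ob result was not tested. H2-Oa, the alpha chain (ENSMUSG00000024334, chr17:34092340-34095234), had 56.4, 34.0 and 92.5 CPM in WT and 66.1, 50.2 and 77.2 CPM in IRF8KO. The IRF8KO values lay inside the WT range, and the log2 fold change was 0.08 (SE 0.36; edgeR adjusted p = 0.899). BC051537 overlaps 22.8% of the exonic length of H2-Oa. Reads that hit exons of several genes were set apart and counted for none of them, so the H2-Oa level per exonic kilobase may be too low.

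The classical chains form the peptide-binding molecules themselves, I-A from H2-Aa and H2-Ab1 and, where its alpha chain is made, I-E with H2-Eb1. H2-Ab1 (ENSMUSG00000073421, chr17:34257689-34269419) had 88.7, 43.9 and 135 CPM in WT and 51.4, 60.7 and 81.8 CPM in IRF8KO, all IRF8KO values within the WT range. Its log2 fold change was -0.46 (SE 0.38; edgeR adjusted p = 0.429), and 0.015 without WT replicate 3. H2-Aa (ENSMUSG00000036594, chr17:34282744-34287823, minus strand) had 20.8, 9.06 and 24.5 CPM in WT and 12.8, 13.9 and 45.6 CPM in IRF8KO. H2-Eb1 (ENSMUSG00000060586, chr17:34305867-34316674) had 16.5, 7.79 and 12.4 CPM in WT and 12.04, 19.0 and 43.5 CPM in IRF8KO. For both genes IRF8KO replicate 3 was more than 2 times as high as any other IRF8KO library, and it set the group mean. Their log2 fold changes of 0.42 (SE 0.53) and 1.04 (SE 0.49) did not pass the edgeR test (adjusted p = 0.617 and 0.162). Without IRF8KO replicate 3 these became -0.42 and 0.37 (edgeR adjusted p = 0.660 and 0.694). The dendritic cell gene Clec10a had 11 counts in IRF8KO replicate 3, 2 in IRF8KO replicate 2 and 0 elsewhere. The summed dendritic markers were lowest in IRF8KO replicate 3, but Fscn1 made up 252 of the 292 CPM there. Other markers of that list went both ways over IRF8KO replicates 1, 2 and 3. Batf3 had 0, 7 and 22 counts and was highest in replicate 3, while Zbtb46 had 26.8, 29.3 and 21.1 CPM and was lowest there. Whether any of these markers bears on the class II chains was not tested.

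Cd74, the invariant chain and also a surface receptor for the cytokine MIF (ENSMUSG00000024610, chr18:60803848-60812652, plus strand), lies outside the class II cluster. It had 139, 85.5 and 230 CPM in WT and 153, 134 and 214 CPM in IRF8KO, with both lowest and highest values in WT. The log2 fold change was 0.14 (SE 0.36; edgeR adjusted p = 0.826). The failure of these 4 genes, H2-Aa, H2-Ab1, H2-Eb1 and Cd74, to pass the test does not show that they are equal between genotypes, since the WT libraries alone differed between 2.12-fold and 3.06-fold.

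Ciita, the transactivator (ENSMUSG00000022504, chr16:10480059-10528418, plus strand), was at the edge of detection. It had 0, 3 and 1 counts in WT and 0, 6 and 8 counts in IRF8KO. A count of 0 allows up to 3 counts, or 0.584 CPM in WT replicate 1 and 0.482 CPM in IRF8KO replicate 1. Summed over each group, 14 counts in IRF8KO stood against 4 in WT, a scaled ratio of 3.49 with an exact 95% interval of 1.10 to 14.6 that covers counting error only and leaves out 1. The ratio was 6.52 without WT replicate 2 and 2.29 without IRF8KO replicate 3. With no filter on low counts the edgeR test gave a log2 fold change of 1.75 (SE 1.66; unadjusted p = 0.291, Benjamini-Hochberg adjusted p = 0.544). The test over libraries, which takes in the spread between replicates, thus found no difference that passed, and the 2 libraries at 0 counts lie 1 in each group. H2-Eb2 and the pseudogene H2-Ea-ps, further class II genes, had 0 counts in all 6 libraries.

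Per length, the order of the members differed between genotypes. In CPM per exonic kilobase, the WT means were 208 for H2-DMa, 137 for H2-DMb1, 90.4 for Cd74, 43.3 for H2-Oa, 34.7 for H2-Ab1, 14.6 for H2-DMb2, 8.71 for H2-Ob, 6.30 for H2-Eb1, 4.78 for H2-Aa and 0.0122 for Ciita. In IRF8KO the means were 99.3 for Cd74, 79.5 for H2-DMb1, 45.8 for H2-Oa, 25.2 for H2-Ab1, 22.0 for H2-DMa, 12.8 for H2-Eb1, 8.42 for H2-DMb2, 6.35 for H2-Aa, 2.27 for H2-Ob and 0.0492 for Ciita. H2-DMa was thus first of the 10 in WT and the fifth in IRF8KO. Neighbours such as H2-Eb1 and H2-Aa in WT, or H2-Ab1 and H2-DMa in IRF8KO, differed by less than the spread of the libraries.

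Ratios within a library do not depend on how libraries are scaled. The ratio of H2-DMa to H2-DMb1 per exonic kilobase was 1.42, 1.23 and 1.74 in WT and 0.320, 0.254 and 0.250 in IRF8KO. The alpha gene was thus ahead of the beta gene in every WT library and behind it in every IRF8KO library, a mean log2 difference of -2.41. The ratio of H2-Ob to H2-Oa was 0.179, 0.325 and 0.168 in WT and 0.0489, 0.0538 and 0.0474 in IRF8KO, a mean log2 difference of -2.10 with no overlap. The ratio of Cd74 to H2-Ab1 was 2.40, 2.98 and 2.62 in WT and 4.55, 3.37 and 4.0002 in IRF8KO, and that of H2-Eb1 to H2-Ab1 0.246, 0.234 and 0.122 against 0.310, 0.414 and 0.703, neither with overlap. The ratio of H2-DMb2 to H2-DMb1 overlapped, as did that of H2-Aa to H2-Ab1, which was 0.123 to 0.169 in 5 libraries and 0.377 in IRF8KO replicate 3. Lack of overlap is common in these data: 37.9% of all tested genes had none as single genes, and no such share was worked out for other pairs of genes. The 6 ratios are descriptions and were not tested, and the uncertain split of reads between the DM beta genes touches those that use them.

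**Figure D2:**
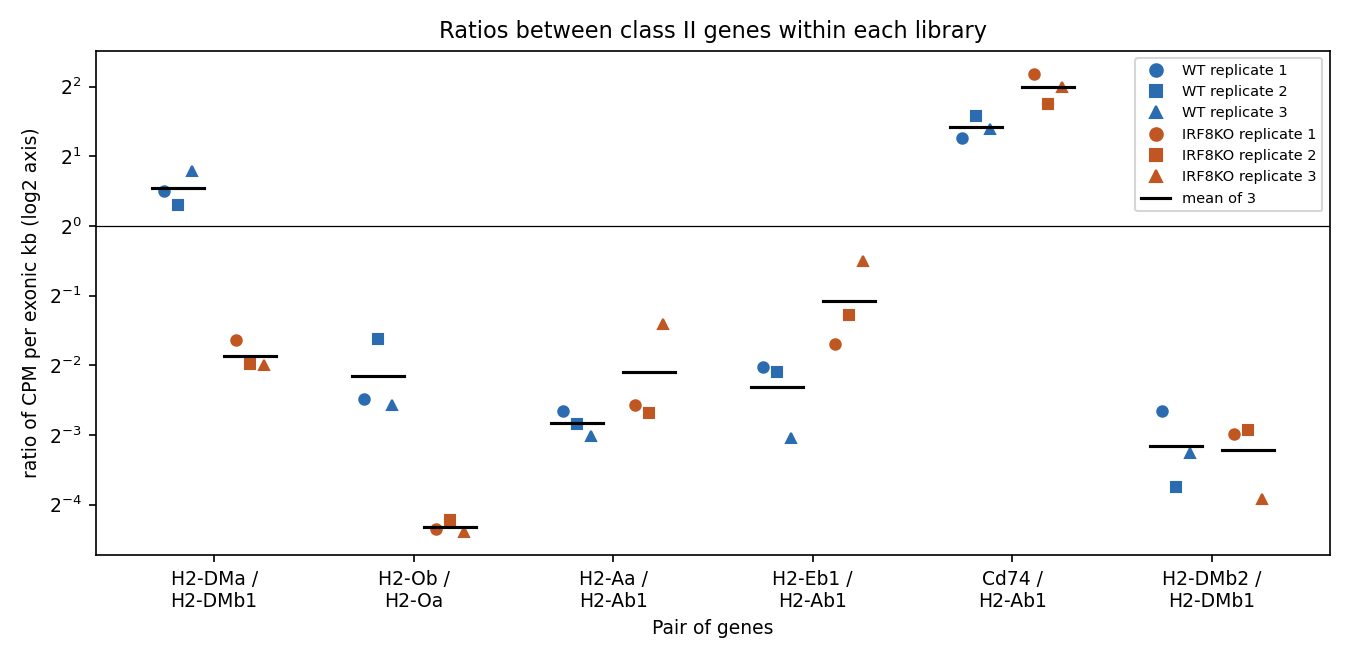
Ratio of CPM per exonic kilobase (log2 axis) for 6 pairs of class II genes within each library; blue is WT, orange is IRF8KO, shapes are replicates and bars are means of 3. The ratio of H2-DMa to H2-DMb1 is above 1 in every WT library and at most 0.320 in IRF8KO.

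WT replicate 3 had the highest WT level for 8 of the 9 tested members, all but H2-Eb1, where it is highest for 40.8% of all tested genes. WT replicate 2 was the lowest for 6 of 9, against 19.9% of all tested genes. From lowest to highest WT library the range was 2.12-fold for H2-Eb1, 2.39-fold for H2-DMb2, 2.46-fold for H2-DMb1, 2.70-fold for Cd74, 2.71-fold for H2-Aa, 2.72-fold for H2-Oa, 3.003-fold for H2-DMa and 3.06-fold for H2-Ab1, and 1.54-fold for H2-Ob. Both the order and the ranges depend on the scaling. By library size alone, WT replicate 3 was highest for 5 of the 9, WT replicate 1 for H2-Aa, H2-Ab1 and H2-Eb1 and WT replicate 2 for H2-Ob, and the range was 1.96-fold for H2-DMa and 1.01-fold for H2-Ob. These libraries share their preparation and scaling, so their members are not independent of each other. In IRF8KO the coefficient of variation was 77.1% for H2-Aa and 66.5% for H2-Eb1, and between 14.6% and 31.5% for the other 7.

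The cluster from H2-Oa to H2-Eb1 spans 224 kb of chromosome 17 and holds 8 of the members. Of its 13 tested genes 2 were called, H2-DMa and H2-Ob, where 19.1% of all tested genes were called, so the number called in the cluster does not set it apart. The 5 that are no members are Brd2, a bromodomain protein, the immunoproteasome subunits Psmb8 and Psmb9 and the peptide transporter genes Tap1 and Tap2, with log2 fold changes of -0.59, 0.21, 0.40, -0.16 and -0.64, none called by edgeR (adjusted p from 0.131 to 0.749). They are all the other tested genes of the interval. The 2 called genes are not neighbours: H2-DMb2, H2-DMb1 and the genes for proteasome and transporter subunits lie between them.

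**Figure D3:**
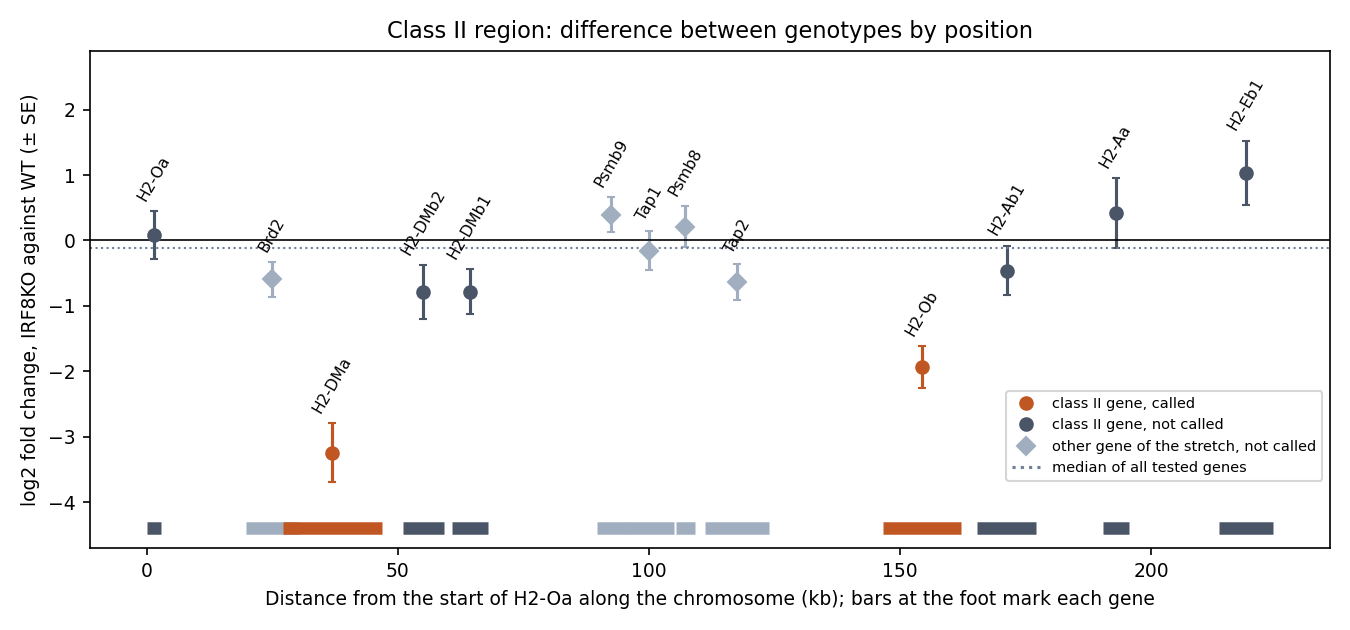
Log2 fold change of IRF8KO against WT with its SE (vertical axis) for the 13 tested genes of the class II cluster, by distance from the start of H2-Oa in kb; bars at the foot mark each gene. H2-DMa at -3.24 and H2-Ob at -1.94 are the called genes.

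Genes that work with these members were read from 8 lists, drawn from general knowledge but with earlier results of these data known. Their 64 tested genes gave 5 higher and 8 lower calls in IRF8KO, 20.3% against the 19.1% of all tested genes. Among the 8 factors that bind the SXY module, 1 was called: Creb1, which fell from 14.5 ± 9.92 to 3.07 ± 0.798 CPM (SD, n = 3), though 1 of its WT values (3.45 CPM, WT replicate 3) lay within the IRF8KO range. With limma-voom Creb1 was not called (log2 fold change -1.89, adjusted p = 0.0955). The RFX subunit Rfxank (log2 fold change 0.62) and the NF-Y subunit Nfyc (-0.35) had edgeR adjusted p of 0.223 and 0.453, and Nr2c2ap overlaps 33.8% of the exonic length of Rfxank. The median log2 fold change of these 8 was -0.41. Of 17 inducers and regulators of Ciita, 3 were called and all were lower. These were Jak1, a kinase of interferon receptors, at 129 ± 56.7 against 39.9 ± 21.2 CPM, and the TGF-beta receptors Tgfbr1, at 319 ± 179 against 84.8 ± 31.5 with overlapping groups, and Tgfbr2, at 225 ± 4.03 against 112 ± 27.3 (SD, n = 3). Their edgeR adjusted p were 0.0196, 0.0147 and 0.0267, and the median of this list was -0.66. Il10ra and Irf8, its most abundant genes, had log2 fold changes of -0.66 and -0.44 and were not called (edgeR adjusted p = 0.146 and 0.368).

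Endosomal processing cuts both antigens and the invariant chain. Of 10 genes, 1 was called: Ctsh, an aminopeptidase of the cathepsin family, with 1049, 1029 and 1537 CPM in WT and 74.8, 51.2 and 135 CPM in IRF8KO. The groups were far apart, with a log2 fold change of -3.79 (SE 0.42; edgeR adjusted p = 0.000117). Ctss, the cathepsin that cuts the invariant chain in many antigen-presenting cells and named after its values were seen, had 3793, 3999 and 2373 CPM in WT and 1543, 1670 and 2015 CPM in IRF8KO. Its groups did not overlap, but the log2 fold change of -0.96 (SE 0.34) missed the threshold (edgeR adjusted p = 0.0702). Ctss was called in 6 of 16 alternatives, among them DESeq2 (adjusted p = 0.0120), limma-voom (0.0445) and the edgeR fit without WT replicate 3 (0.00206). The abundant Cst3, a cathepsin inhibitor, and Ctsd had log2 fold changes of -0.21 and 0.86 (edgeR adjusted p = 0.792 and 0.225), and the list had a median of -0.14.

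Of 10 tested genes for class II traffic and turnover, 2 were lower and 1 was higher, with a list median of -0.06. March1, the ubiquitin ligase that sends class II and CD86 from the surface to lysosomes, had 41.1, 45.5 and 22.5 CPM in WT and 4.65, 15.7 and 2.06 CPM in IRF8KO. Cd83, a membrane protein that opposes this ligase, had 259, 236 and 369 CPM in WT and 816, 509 and 515 CPM in IRF8KO. The pair moved in opposite directions, with log2 fold changes of -2.26 (SE 0.61) and 1.09 (SE 0.32) and edgeR adjusted p of 0.0231 and 0.0347. Rab7, a GTPase of late endosomes, fell from 79.6 ± 24.9 to 34.8 ± 7.55 CPM (SD, n = 3; edgeR adjusted p = 0.0210). Ctsa and Ubb, the most abundant of the others, had log2 fold changes of 0.43 each and were not called. Of 6 tested costimulatory genes, 1 was called, and the list median was -0.15. Cd86, a ligand of CD28 on T cells, had 167, 188 and 74.6 CPM in WT and 28.6, 59.05 and 21.8 CPM in IRF8KO, a log2 fold change of -1.97 (SE 0.44; edgeR adjusted p = 0.00868). Icosl and Icam1 had log2 fold changes of 0.16 and -0.68 and were not called.

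Of 5 tested ligands and receptor partners of CD74, 3 were called, all higher, where 9.64% of all tested genes were called higher. These 3, Cd44, Ackr3 and Cxcr2, were near or at 0 in WT. They passed the low-count filter through IRF8KO, so a call could only be higher. Cd44, its signalling partner, had 1, 3 and 3 counts in WT and 63, 219 and 92 counts in IRF8KO, or 0.274 ± 0.122 against 13.2 ± 5.55 CPM (SD, n = 3; log2 fold change 5.55, SE 0.67, edgeR adjusted p = 0.000208). It was highest in IRF8KO replicate 2, the library with neutrophil markers, at 19.7 CPM against 10.1 and 9.98 in the other IRF8KO libraries, and kept its call without that library. Ackr3 rose to 34.1 ± 12.2 CPM from 0.496 ± 0.858 CPM (SD, n = 3; edgeR adjusted p = 0.00086), with WT counts of 0, 21 and 0. Cxcr2, a receptor of neutrophils, had 0 counts in WT and 10, 46 and 16 counts in IRF8KO, at least 23.9-fold higher against a floor of 3 counts over the group (edgeR adjusted p = 0.00709), and was highest in IRF8KO replicate 2, the library with neutrophil markers. The cytokine gene Mif had 38.8 ± 20.0 and 80.9 ± 11.96 CPM (SD, n = 3) and did not pass (edgeR adjusted p = 0.0561), but it was called in 7 of 16 alternatives, DESeq2 (adjusted p = 0.0356) and limma-voom (0.0312) among them. Its relative Ddt had an adjusted p of 0.142. The median log2 fold change of the 5 was 5.55, the value of Cd44, and rests on the genes that passed the filter through IRF8KO. For comparison, 1 of 8 MHC class I genes was called, H2-K1, at 726 ± 156 against 1554 ± 249 CPM (SD, n = 3; edgeR adjusted p = 0.0314). H2-D1 and Tapbp were not called, with log2 fold changes of 0.34 and 0.21, but both were called higher without WT replicate 3 (0.79 and 0.68; edgeR adjusted p = 0.0238 and 0.0214).

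**Figure D4:**
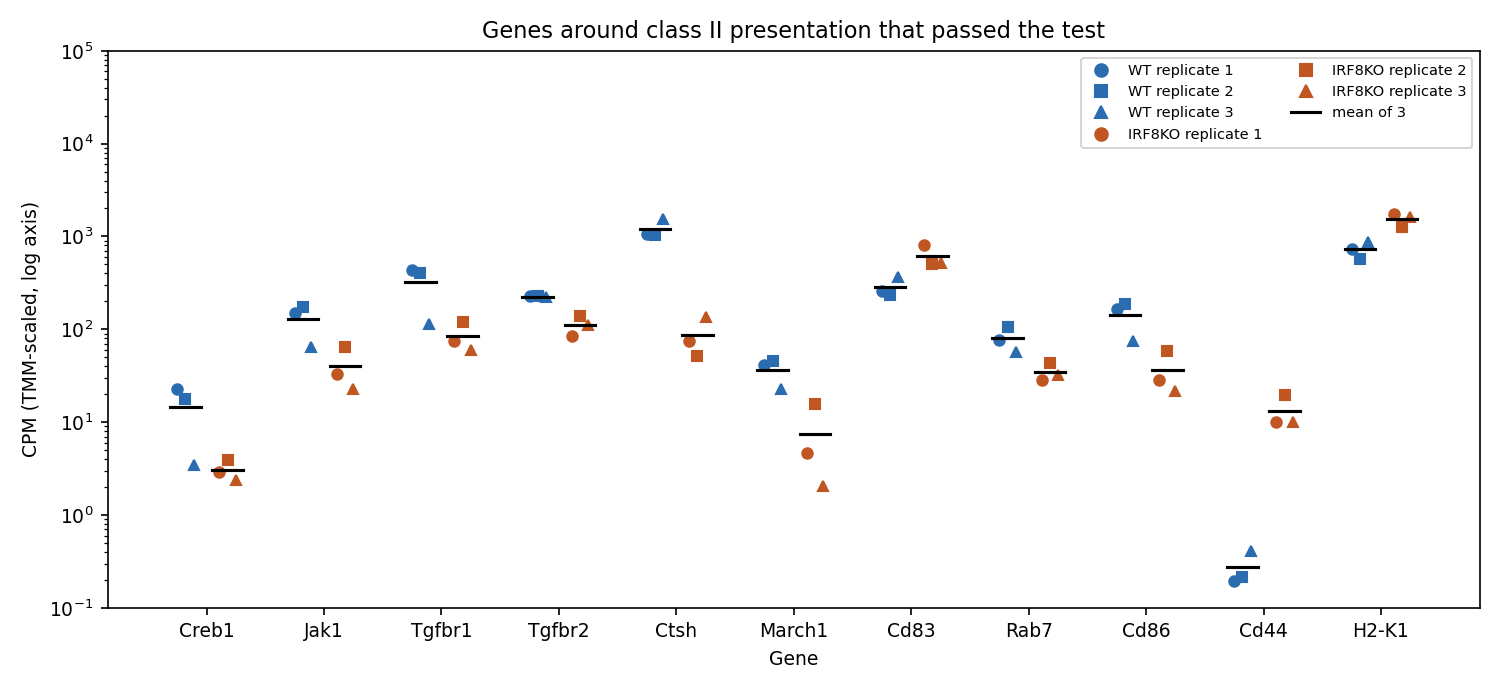
CPM (log axis) by library for 11 of the 13 called genes around class II presentation, leaving out Cxcr2 and Ackr3, which have libraries at 0; blue is WT, orange is IRF8KO, shapes are replicates and bars are means of 3. Ctsh, March1 and Cd86 are lower and Cd83 and Cd44 higher in every IRF8KO library than in any WT library.

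Ctsh, Cd44, Cxcr2 and Ackr3 kept their calls whichever library was left out. Creb1, Jak1, Tgfbr1, Tgfbr2, March1, Cd83, Rab7, Cd86 and H2-K1 each lost the call in at least 2 of those 6 fits, with edgeR adjusted p of at most 0.167. In every case these fits included the ones without IRF8KO replicate 1 and without IRF8KO replicate 3.

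Genes with a pattern most like the members were sought over the 6 libraries, by the root mean square distance between centred log2 CPM. The 5 nearest to H2-DMa were Slc12a9, a transporter of the chloride cotransporter family, at a distance of 0.16, then Plpp1 (0.26), Slc2a5, the fructose transporter found in microglia (0.30), Hps4 (0.31) and Wscd1 (0.33), among 3561 genes compared. Slc12a9 had 219, 293 and 503 CPM in WT and 50.6, 29.9 and 35.8 CPM in IRF8KO, lowest in WT replicate 1 and highest in WT replicate 3, as was H2-DMa. For the mean profile of H2-Aa, H2-Ab1, H2-Eb1 and Cd74, the nearest of 9355 genes were Mvk (0.19), Nipal3 (0.20), Synj2 (0.21), Rnf113a1 (0.23) and Hlcs (0.24). Without WT replicate 3, 0 of these 5 remained among the nearest, and 1 of 5, Slc12a9, did for H2-DMa. These distances describe 6 libraries that share depth and composition and carry no test.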

How the data were processed

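Per the submitters' processing notes, STAR 2.5.2b, Picard 2.17.11, bcl2fastq, Subread and featureCounts were used with build mm10. Their roles and the annotation release are not given in the sources used here. The authors deposited raw counts per gene in STAR's layout, of which the column that ignores strand was used, since SMART-Seq v4 libraries carry no strand. Gene counts per library ranged from 3658917 to 11098363. Symbols, positions and exonic lengths came from GENCODE M21 (GRCm38), which matched 49326 of 49585 identifiers. The summary lines were left out of library sizes, and reads outside genes made up 2.44% to 7.70% of uniquely mapped reads.

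The 6 libraries entered 1 edgeR fit (4.0.16, under R 4.3.3), which used the default low-count filter (10 counts), normalization by TMM and a quasi-likelihood test of genotype alone, two-sided, adjusted by Benjamini-Hochberg over 11041 genes and called under 0.05. SE were derived from the F statistic. Replicates were compared by chi-square, which gave at least 8.57 per degree of freedom, so none was a repeat deposit. Named genes were all members and, of each list, the called genes and the 2 most abundant others. Members and lists were chosen with earlier results of these data known. Alternatives included DESeq2 1.42.0, limma 3.58.1, other scalings and filters, stranded counts, a replicate block and leaving out each library.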

Additional observations from a re-analysis of the deposited data

How the results depend on the processing

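H2-DMa and H2-Ob kept direction and call in all 16 alternatives, with log2 fold changes from -3.66 to -2.58 and from -2.41 to -1.70. H2-Eb1 and H2-DMb2 stayed uncalled in all 16 without a change of sign. Scaling by library size alone moved the median of all tested genes from -0.11 to -0.61; 651 calls were then higher and 1908 lower (25.4% higher in place of 50.5%), with 27 calls in the 8 pathway lists in place of 13, and a call for H2-DMb1 (-1.22, edgeR adjusted p = 0.00436). The uncalled values reversed there were H2-Aa (-0.049), Cd74 (-0.30), H2-Oa (-0.37), Ctsa (-0.044), Ubb (-0.065), Icosl (-0.31), H2-D1 (-0.13) and Tapbp (-0.24). Leaving Apoe out before scaling gave 57.3% higher among 2040 calls and reversed no member.

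Without 1 library each, called genes ranged from 910 (no IRF8KO replicate 3) to 4003 (no WT replicate 3), 524 to 2168 of them higher and 386 to 1835 lower, and pathway calls from 4 to 29. Over those fits H2-Aa ranged from -0.42 to 0.75, H2-Ab1 from -0.80 to 0.015, Cd74 from -0.16 to 0.61 , H2-Oa from -0.22 to 0.55, Cst3 from -0.41 to 0.21 and Icosl from -0.037 to 0.49. The signs turned without WT replicate 2 for Cd74 (-0.16) and H2-Oa (-0.22), without IRF8KO replicate 3 for H2-Aa (-0.42), Cd74 (-0.07) and H2-Oa (-0.06), without WT replicate 3 for H2-Ab1 (0.015) and Cst3 (0.21), and without IRF8KO replicate 1 for Icosl (-0.037). Without WT replicate 3, Rfxank, Ctsd, Ctsa, Ubb, Mif, Ddt, H2-D1 and Tapbp were called higher and Ctss lower, and under library size alone Irf8, Il10ra, Ctss, Cst3 and Icam1 were called lower. The Ciita ratio ranged from 2.29 to 6.52. Of the nearest genes, 0 of 5 (class II chains and Cd74) and 1 of 5 (H2-DMa) remained without WT replicate 3. The cause of these shifts was not tested.

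Replicate numbers were not treated as pairs: deviations of same-numbered libraries correlated at -0.26, 0.33 and 0.11, and not every library correlated best with its own number. With a replicate block, 2353 genes were called (edgeR), H2-DMa was at -3.10 and H2-Ob at -1.93. H2-K1 lost its call there (adjusted p = 0.0519), Mif gained one (0.0179), as in 6 other alternatives, and no member's call changed. Ciita rests on 4 counts in WT and 14 in IRF8KO.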
